A study of Mus musculus with 12 samples.

Results

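The genes described here encode subunits of the mitochondrial respiratory chain and of ATP synthase that reside on nuclear chromosomes. They were taken from the gene table by symbol, as the Nduf genes of the A, B, C, S and V series, Sdha to Sdhd, the Uqcr genes, Cox4 to Cox8 genes and the Atp5 genes. The rule found 84 of 24340 gene rows, of which 37 belong by symbol to complex I, 4 to complex II, 8 to complex III, 18 to complex IV and 17 to complex V, and each has a single row. Of these, 80 reached 1 FPKM in at least 3 libraries and were tested, and the other 4 were the complex IV isoforms Cox4i2, Cox6a2, Cox7b2 and Cox8c. The subunits encoded by mitochondrial DNA were not analysed here.

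Complex I oxidises NADH and complex II oxidises succinate, and both pass electrons to ubiquinone. Complex III moves them on to cytochrome c and complex IV to oxygen, and the proton gradient that complexes I, III and IV build drives ATP synthase, complex V. In the liver these complexes are a known target of acetaminophen (APAP), whose reactive product binds to mitochondrial proteins. The symbols do not follow the complexes exactly. Ndufa4 is now counted with complex IV, and Atp5s and Atp5sl name proteins that are not structural subunits of ATP synthase. Cox7a2l is known as a factor that joins complexes into supercomplexes, a role that was not measured in these mice. Ndufab1, Cyc1, Cycs and Usmg5 belong to the chain but fall outside the symbol rule.

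RNA of C57BL/6 mouse livers (Taconic) was sequenced after poly(A) selection in 12 libraries, 3 in each of 4 groups. The first pair of groups was taken 6 h after an intraperitoneal dose of 300 mg/kg APAP, an analgesic that injures the liver at high doses, from mice that had drunk water with 3-phenylpropionic acid (PPA) for 4 weeks or plain water (control). The second pair, PPA and control, had the same drinking water and is labelled 0 h after APAP, and the labels do not make clear whether these mice were injected. All mice were fasted for 16 h before APAP, and no group was taken at 6 h without it, so APAP cannot be told apart from the added hours of fasting or the hour of the day. Whether the 3 libraries of a group are 3 animals is not stated, and p-values therefore reflect library-to-library spread, part of which may be technical. Levels are given in FPKM, fragments scaled to transcript length and to the library's total, and changes are differences of log2(FPKM + 1) with their standard error. "Rose" and "fell" mean an adjusted p under 0.05 in limma over all 10042 tested genes, and the log2 scale understates changes of genes of a few FPKM.

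Depth, estimated from the smallest values in each library, was 7380000 to 10640000 fragments at 6 h and 3410000 to 5270000 at 0 h, so depth and time cannot be told apart. Of the 80 tested genes, 74 rested on 100 or more estimated fragments in every library. Replicates correlated across genes at r = 0.976 to 0.99. The hepatocyte markers Apoa1, Ttr and Serpina1a were abundant in all libraries, while Alb is listed at 0 in all 6 h libraries. In 3 libraries values stood apart. Control library 4 at 6 h held skeletal muscle transcripts, with 15 muscle markers summing to 162 FPKM against 6.23 FPKM or less in each other library. PPA library 2 at 0 h held fat transcripts, with 5 white fat markers at 102 FPKM against 49.6 or less elsewhere, and it alone listed Ucp1 above 0. Control library 1 at 0 h was high in short transcripts of all kinds. In these bulk samples fewer cells of a type and less RNA per cell cannot be told apart.

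Respiratory chain transcripts were among the abundant ones in these livers. Their median level was 289 FPKM, against 6.7 FPKM for all tested genes, and 67 of the 84 averaged 100 FPKM or more. Together they took 4.67 to 4.85% of all FPKM in PPA libraries at 6 h and 4.82 to 5.74% in control libraries at 6 h. At 0 h the share was 4.88 to 5.06% in PPA libraries and 5.15 to 6.1% in control libraries. Totals at 6 h hold no Alb, so shares are not set against those at 0 h. Within a time the controls ran higher and wider, and the groups overlapped at 6 h but not at 0 h.

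Levels differed widely within a complex. In complex I the most abundant transcript was Ndufa4, with a mean of 1045 FPKM over the 12 libraries, and Ndufs1, which encodes the largest iron-sulfur subunit of the electron input arm, averaged 22.5 FPKM. The lowest tested in complex I was Ndufa4l2, a paralogue of Ndufa4 known as a hypoxia-induced gene, at 1.87 FPKM. Complex II was the most even, with Sdhb, the iron-sulfur subunit, at 313.5 FPKM and Sdha, the flavoprotein that oxidises succinate, at 134.5 FPKM. In complex III, Uqcrq, a small accessory subunit, averaged 2843 FPKM and was the highest of all 84, while the core protein Uqcrc2 had 94.2 FPKM. Complex IV ran up to 1849 FPKM for Cox6a1, the form of subunit VIa found outside muscle, and down to 2.2 FPKM for the testis form Cox6b2. In complex V the epsilon subunit Atp5e averaged 1360 FPKM and Atp5s 2.26 FPKM.

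The 3 genes Atp5g1, Atp5g2 and Atp5g3 encode the same mature c subunit of the ATP synthase rotor and differ in their import sequences. Atp5g3 was the main transcript, at 1159 FPKM, against 251 FPKM for Atp5g1 and 143 FPKM for Atp5g2. Many of the short chain genes have processed pseudogenes or close copies, and how the authors' counting split shared reads is not given in the sources used here, so single levels of such genes are uncertain.

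Most of these transcripts are short. The median length was 760 bases, against 2627 bases for all tested genes with a length, and 63.7% were under 1000 bases, against 8.85% of all tested genes. Within the group shorter transcripts had higher levels (Spearman rho = -0.36 across 80 genes, which share the same libraries). Because libraries differed in their level of short transcripts of all kinds, the comparisons are also given with the trend of each library on length taken out.

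The 80 genes moved up and down together from library to library. In control library 1 at 0 h 76 of them lay above their own mean over the 12 libraries, with a median deviation of 0.39 on the log2 scale. In control library 4 at 6 h it was 77, with a median of 0.30, and the exceptions were Atp5s, Ndufs1 and Sdha. In control library 2 at 6 h it was 70, with a median of 0.14. On the low side, 2 were above their mean in PPA library 2 at 6 h, Ndufb4 and Ndufs5, and the median was -0.23. In PPA library 1 at 6 h 7 were above it, and in control library 3 at 6 h 10, with medians of -0.14 and -0.17. High and low libraries thus stood side by side among the controls at 6 h.

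**Figure D1:**
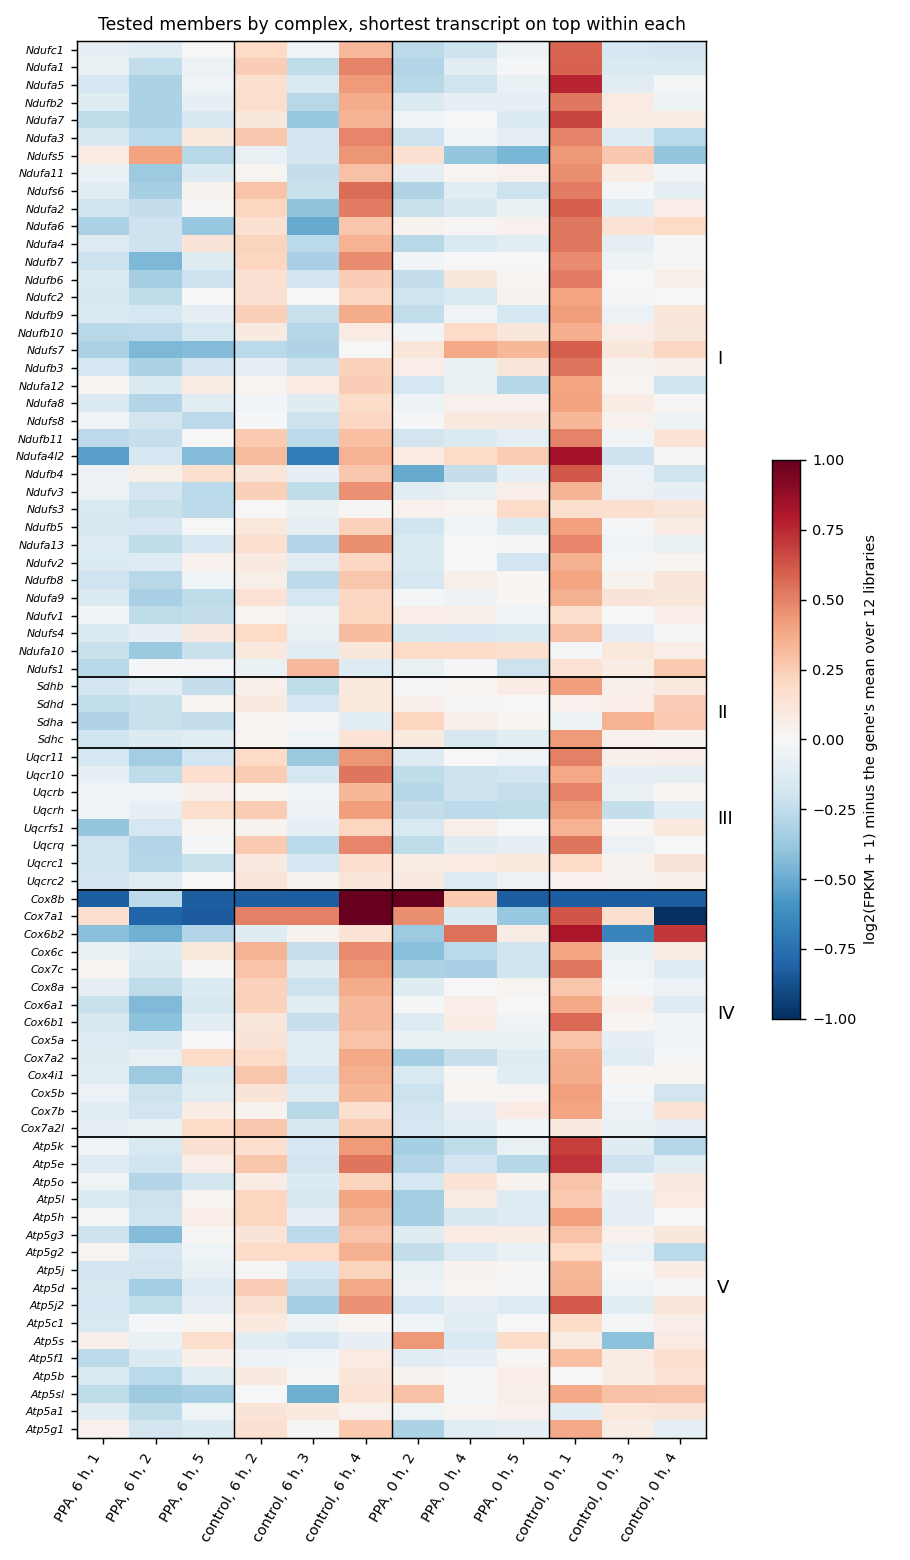
Heat map of 79 of the 80 tested genes (rows, by complex, shortest transcript on top in each) in the 12 libraries (columns, PPA left of control, 6 h left of 0 h, number of the library after the group). Colour is log2(FPKM + 1) minus the gene's mean over all libraries, limited to 1 either way; whole columns are red in control library 1 at 0 h and control library 4 at 6 h, and blue in PPA library 2 at 6 h.

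In control library 1 at 0 h and control library 4 at 6 h short genes of all kinds were high as well. In control library 1 at 0 h the median deviation of all tested genes was 0.41 for transcripts under 500 bases, 0.32 for 500 to 1000 bases and -0.12 for 4000 bases or more, and that of the chain genes was 0.61 and 0.42 in the 2 short classes. In control library 4 at 6 h all genes under 500 bases had a median of 0.37 and those of 4000 bases or more -0.07. In the PPA libraries at 6 h the pattern was another. All genes under 500 bases had medians of 0.04, 0.00 and 0.11 in libraries 1, 2 and 5. The chain genes of that length were at -0.13, -0.29 and -0.07 there, and those of 2000 to 4000 bases at -0.21, -0.20 and -0.13. From 500 to 1000 bases, the class that holds 39 of the chain genes, all genes were low too, at -0.07, -0.08 and -0.03. The chain genes of that class were at -0.13, -0.23 and -0.09. With the length trend of each library removed, the medians of the chain genes shrank to 0.09 in control library 1 at 0 h and 0.10 in control library 4 at 6 h. In PPA libraries 1, 2 and 5 at 6 h they were -0.09, -0.16 and -0.04.

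**Figure D2:**
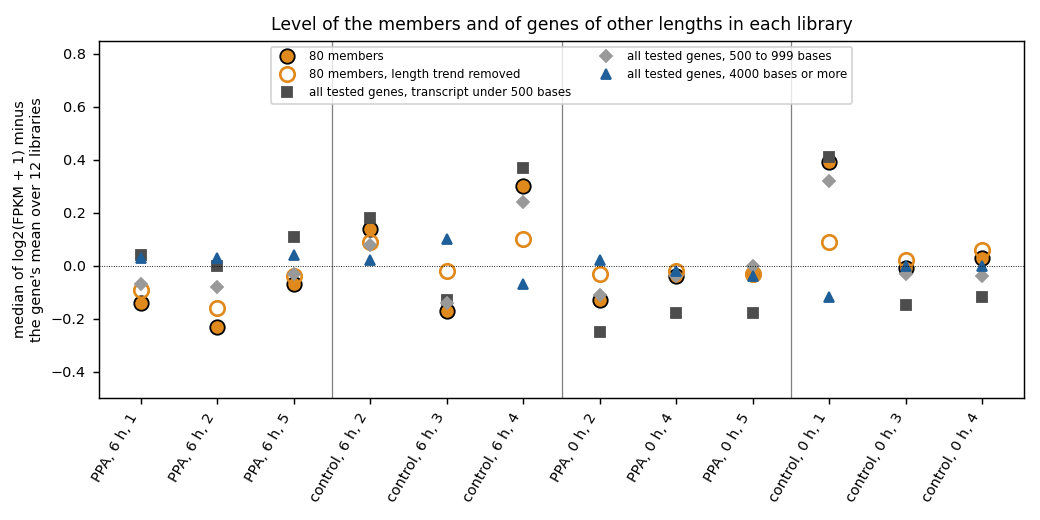
Median deviation from each gene's own mean, in log2(FPKM + 1), by library, for the 80 chain genes (filled circles), the same with the length trend removed (open circles), and all tested genes of 3 length classes (squares, diamonds, triangles). Filled circles lie with the short genes in control library 1 at 0 h (0.39) and control library 4 at 6 h (0.30). They lie below them in PPA libraries 1, 2 and 5 at 6 h (-0.14, -0.23 and -0.07).

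The comparison of PPA with plain water at 0 h asks what PPA does to the fasted liver before the response to APAP. The chain genes were lower in the PPA group almost throughout, by a small amount that did not pass the test. Of 80, 76 had a lower mean, with a median of -0.22, or 13.9% less, against -0.01 for all tested genes, and none was called. Over all genes 3 were called, 0.0299%. At an unadjusted p under 0.05 there were 4 chain genes, 5.0% against 6.8% of all genes. The median standard error of the 80 changes was 0.16.

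The 4 were Uqcrb, known as the ubiquinone-binding protein of complex III, the complex IV subunits Cox6c and Cox7c, and Ndufb5 of the membrane arm of complex I. Uqcrb had 195, 205 and 202 FPKM in PPA libraries at 0 h, against 335, 225 and 240.5 FPKM in control libraries. The groups did not overlap, but control library 1 lay far above the other controls (-0.39 ± 0.15, adjusted p = 0.678). Cox6c had 569, 633 and 664.5 FPKM in PPA libraries, against 998.8, 724 and 804 FPKM in control libraries (-0.43 ± 0.18, adjusted p = 0.704). Cox7c had 472, 470.4 and 512 FPKM in PPA libraries and 849, 575 and 538 FPKM in control libraries (-0.40 ± 0.18, adjusted p = 0.725).

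By complex, the median change at 0 h was -0.22 for complex I, where 36 of 37 genes were lower, -0.13 for complex II with 4 of 4, -0.27 for complex III with 8 of 8, -0.16 for complex IV with 12 of 14, and -0.15 for complex V with 16 of 17. In complex I the lowest was the accessory subunit Ndufb4 (-0.40 ± 0.19) and the highest Ndufa10 (0.13 ± 0.10). Complex II ran from Sdhc, a membrane anchor (-0.23 ± 0.12), to Sdha (-0.09 ± 0.12). Complex III ran from Uqcrb to the core protein Uqcrc1 (-0.03 ± 0.11). In complex IV, Cox6c was lowest, and Cox7a1 was at 0.14 ± 0.41. In complex V, Atp5e was lowest (-0.39 ± 0.23) and Atp5s highest (0.24 ± 0.17).

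Groups did not overlap, with PPA lower, for 20 of the 80 chain genes (25%), against 7.96% of all tested genes. The only one with PPA higher and no overlap was Ndufa10, against 6.57% of all genes. Without control library 1, 59 of the 80 had a lower mean, with a median of -0.08, and none had an unadjusted p under 0.05. With the length trend removed 59 were again lower, with the same median of -0.08.

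The same comparison at 6 h asks whether PPA alters the liver after APAP. Here 78 of 80 chain genes had a lower mean in the PPA group, with a median of -0.23, or 14.9% less, against -0.02 for all tested genes. None passed the test, against 14 of all genes, 0.139%, and 8 chain genes had an unadjusted p under 0.05, 10% against 14.9% of all genes. The exceptions in direction were Ndufs5 (0.01 ± 0.25) and Atp5s (0.18 ± 0.17).

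The smallest p belonged to Ndufa10, an accessory subunit of the membrane arm of complex I. It had 88.7, 79.9 and 88.9 FPKM in PPA libraries at 6 h, against 111.5, 96.7 and 112 FPKM in control libraries (-0.31 ± 0.10, adjusted p = 0.207). All PPA libraries were below all controls, the reverse of 0 h, where PPA libraries held 120, 118 and 117 FPKM and control libraries 103, 112 and 109 FPKM. The test of the difference between both effects gave -0.44 ± 0.14, with an adjusted p of 0.457. Cox6a1 had 1569, 1344 and 1639 FPKM in PPA libraries at 6 h and 2146, 1699 and 2293 FPKM in control libraries, without overlap (-0.42 ± 0.16, adjusted p = 0.262). Among the others were the tissue isoform Cox7a1 (-1.15 ± 0.41), Ndufa9 (-0.30 ± 0.12) of complex I, Uqcrc1 (-0.26 ± 0.11), Atp5g2 (-0.31 ± 0.13) and the catalytic beta subunit Atp5b (-0.24 ± 0.11).

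Median changes at 6 h were alike across complexes, at -0.25 for complex I, -0.17 for complex II, -0.24 for complex III, -0.27 for complex IV and -0.23 for complex V. Lowest in complex I was Ndufb7 (-0.38 ± 0.19). Complex II ran from Sdha (-0.23 ± 0.12) to Sdhb (-0.14 ± 0.13), and complex III from Uqcrq (-0.33 ± 0.21) to Uqcrb (-0.12 ± 0.15). In complex IV Cox7b was nearest to no change (-0.05 ± 0.15), and in complex V the delta subunit Atp5d was lowest (-0.34 ± 0.16).

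Groups did not overlap, with PPA lower, for 15 of 80 (18.8%), against 8.61% of all tested genes, and with PPA higher for Atp5s alone, against 6.58% of all genes. With the length trend removed, 75 of 80 were still lower, with a median of -0.15. The call depended on the control libraries. Without control library 3, the low one, 11 of the 80 chain genes were called, all lower, against 8.2% of all genes called in either direction. Ndufa10 was among the 11 (-0.38, adjusted p = 0.0397), and the median of the chain genes was -0.34. Without control library 4, the one with muscle transcripts, the median was -0.14 and 1 gene had an unadjusted p under 0.05.

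**Figure D3:**
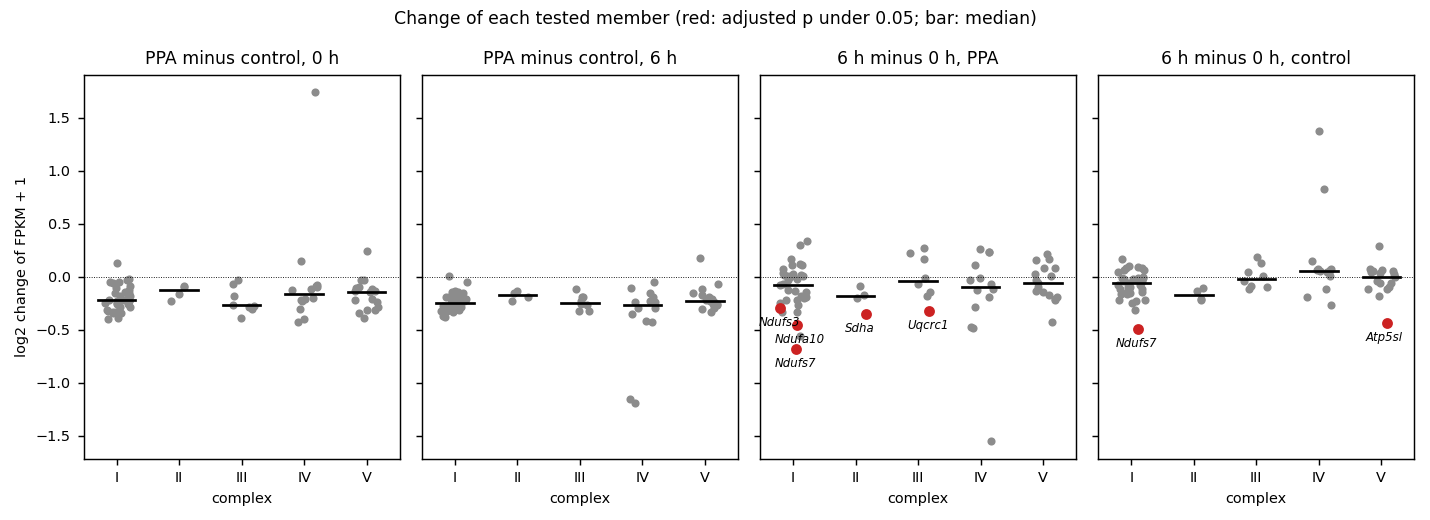
Change of each of the 80 tested genes, in log2(FPKM + 1), by complex in 4 comparisons; points are genes, bars the median of a complex, red points have an adjusted p under 0.05 in limma. Most points of both panels of PPA minus control lie below 0 and none is red. The panels of 6 h minus 0 h are centred near 0, with 5 red points in PPA and 2 in control mice, all below 0. The far points in complex IV are Cox7a1 and Cox8b.

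Averaged over both times, the PPA effect had a median of -0.21 and was negative for 78 of 80 chain genes, all but Atp5s and Cox8b. None was called, against 10 of all genes, 0.0996%, and 24 had an unadjusted p under 0.05, 30.0% against 13.0% of all genes. That number was 4 without PPA library 2 or control library 4 at 6 h, 5 without PPA library 2 or control library 1 at 0 h, 7 without control library 2 at 6 h, and 12 to 14 without PPA library 4 or 5 at 0 h or PPA library 1 at 6 h. It was 28 without control library 4 at 0 h or without PPA library 5 at 6 h, and 34 without control library 3 at 0 h. Without control library 3 at 6 h it was 59, and 3.35% of all genes were then called, against 0.0996% with all libraries. The share of all genes at an unadjusted p under 0.05 was not computed for fits with a library left out. The smallest p belonged to Ndufa9, which helps to hold the ubiquinone module in place (-0.26 ± 0.09, adjusted p = 0.292). With the length trend removed the median was -0.12, and 78 were again negative. The difference of the PPA effects between 6 h and 0 h had a median of -0.04, and no chain gene was called, against 1 of all genes, 0.00996%. The 2 with an unadjusted p under 0.05, 2.5% against 9.26% of all genes, were Ndufa10 and Cox7a1.

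The PPA change varied with transcript length. At 0 h the median change of all tested genes was -0.19 under 500 bases, -0.14 from 500 to 1000, -0.04 from 1000 to 2000 and 0.01 from 2000 to 4000 bases. That of the chain genes was -0.28, -0.22, -0.16 and -0.16 in the same classes, which hold 12, 39, 23 and 6 of them. At 6 h all genes had -0.10, -0.12, -0.05 and -0.01, and the chain genes -0.29, -0.24, -0.19 and -0.23. In each class the chain genes were below all genes of that length. Spearman's rho of change and length was 0.19 across 9971 genes and 0.36 across the 80 at 0 h, and 0.11 and 0.32 at 6 h. These are values across genes of the same libraries, not replicates.

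**Figure D4:**
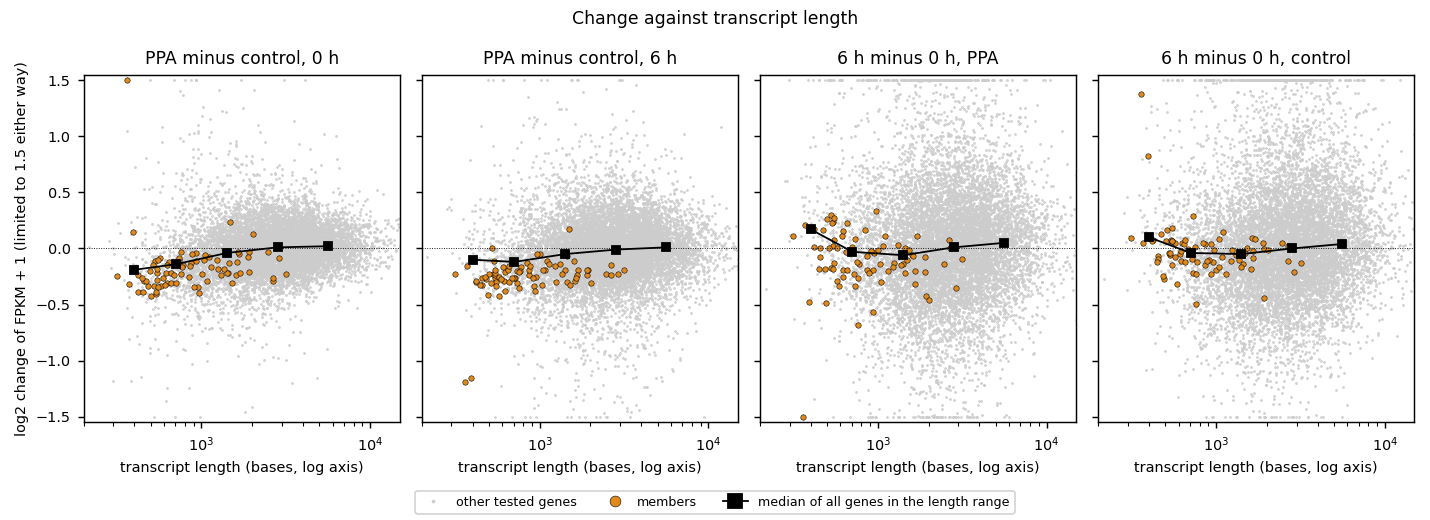
Change in log2(FPKM + 1) against transcript length (log axis) in 4 comparisons, for other tested genes (grey), the chain genes (orange) and the median of all genes in 5 length classes (black squares), with changes limited to 1.5 either way. In the PPA panels orange points sit at short lengths and below the black line, which itself slopes down toward short transcripts, to -0.19 at 0 h and -0.10 at 6 h.

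The comparison of 6 h with 0 h asks how the liver responds to APAP. In PPA mice 5 chain genes fell by 6 h, against 13.3% of all tested genes, and none rose, against 15.0%. The median change was -0.08. Ndufs7 had 304, 276.5 and 279 FPKM in PPA libraries at 6 h, against 411, 494 and 475 FPKM at 0 h, far apart (-0.68 ± 0.14, adjusted p = 0.00422). Ndufs7 encodes the core subunit of complex I that carries the last iron-sulfur cluster before ubiquinone. For Ndufa10 the PPA libraries listed above, lower at 6 h than at 0 h without overlap, gave -0.46 ± 0.10 (adjusted p = 0.00519). In control mice its change was -0.02 ± 0.10.

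Another 3 fell by smaller amounts. Ndufs3, a core subunit of the ubiquinone module, had 85.03, 80.9 and 78.9 FPKM in PPA libraries at 6 h and 97.5, 96.4 and 108 FPKM at 0 h (-0.30 ± 0.09, adjusted p = 0.031). Sdha had 108, 114 and 113 FPKM at 6 h and 154, 139 and 135 FPKM at 0 h (-0.35 ± 0.12, adjusted p = 0.0413). Uqcrc1 had 226, 213 and 223 FPKM at 6 h and 273, 275 and 279 FPKM at 0 h (-0.32 ± 0.11, adjusted p = 0.0464). None of the 3 overlapped between times, yet leaving out any 1 of the 6 PPA libraries ended each call, with adjusted p up to 0.14. The calls of Ndufs7 and Ndufa10 held without each library, with adjusted p up to 0.0214. The change of each of the 5 in control mice was in the same direction, from -0.49 for Ndufs7 to -0.02 for Ndufa10, and a test of PPA against control responses gave an adjusted p of at least 0.457 for each.

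In control mice few chain genes were called over time, while many other genes were. No chain gene rose, against 15.2% of all tested genes, and 2 fell, against 11.8%. The median change was -0.04, and it ran from -0.15 to 0.08 as single control libraries were left out. A change of less than 0.5 in either direction was seen for 78 of 80 genes, with a median standard error of 0.16. The share of all genes within that bound was not computed. Control groups did not overlap for 3 chain genes that were lower at 6 h, 3.75% against 18.6% of all genes, and for none that were higher, against 21.1%. The median SD of the chain genes within a group was 0.24 at 0 h and 0.23 at 6 h in control libraries. In PPA libraries it was 0.09 and 0.11, so a lack of overlap was harder to reach in control than in PPA mice. Atp5g2, at 0.29 ± 0.13, missed the threshold, so these counts do not show that levels were equal.

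The 2 that fell were Ndufs7 and Atp5sl. Ndufs7 had 313, 307 and 378 FPKM in control libraries at 6 h, against 571, 409 and 437 FPKM at 0 h, and the groups did not overlap (-0.49 ± 0.14, adjusted p = 0.0230). Atp5sl, now named Dmac2 and known for its part in building complex I, had 18.5, 12.9 and 20.4 FPKM at 6 h and 24.4, 23.0 and 22.8 FPKM at 0 h (-0.44 ± 0.15, adjusted p = 0.0457). The call of Ndufs7 was lost without control library 1 at 0 h or without library 2 or 3 at 6 h, with adjusted p up to 0.0822. That of Atp5sl was lost without any control library other than library 4 at 6 h, with adjusted p up to 0.141.

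The 150 bases before the RefSeq start of the 5 genes that fell in PPA mice are printed here. These genes are the calls of that comparison, which were made on FPKM alone. The printed bases stand on GRCm38.p6, the assembly called mm10. Capitals mark matches to the motifs searched, on either strand.
Ndufs7, chr10:80249299-80249448, plus strand: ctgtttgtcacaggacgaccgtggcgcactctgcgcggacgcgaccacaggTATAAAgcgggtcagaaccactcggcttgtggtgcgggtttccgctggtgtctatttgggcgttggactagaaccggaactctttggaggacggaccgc
Ndufa10, chr1:92473759-92473908, minus strand: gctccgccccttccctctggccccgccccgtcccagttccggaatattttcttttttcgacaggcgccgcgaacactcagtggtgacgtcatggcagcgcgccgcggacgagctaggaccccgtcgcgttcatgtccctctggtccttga
Ndufs3, chr2:90904722-90904871, minus strand: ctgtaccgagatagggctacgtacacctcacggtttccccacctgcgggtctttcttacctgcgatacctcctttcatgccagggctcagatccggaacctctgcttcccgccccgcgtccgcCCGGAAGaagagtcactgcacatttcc
Sdha, chr13:74350241-74350390, minus strand: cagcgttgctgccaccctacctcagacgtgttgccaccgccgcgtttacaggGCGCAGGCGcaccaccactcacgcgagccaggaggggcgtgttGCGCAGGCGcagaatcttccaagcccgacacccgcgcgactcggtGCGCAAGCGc
Uqcrc1, chr9:108936498-108936647, plus strand: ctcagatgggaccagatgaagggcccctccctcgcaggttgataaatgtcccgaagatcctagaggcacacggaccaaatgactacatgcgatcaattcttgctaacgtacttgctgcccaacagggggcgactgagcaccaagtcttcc
Sdha holds 3 matches to the NRF1 letters, Ndufs3 an ETS match and Ndufs7 a TATA match. In GENCODE M21, used for the lengths, the Ndufs7 gene starts at base 80249121, so its printed stretch lies inside the gene. In the other printed genes the GENCODE start lies within the stretch. In the 50 bases after the start, not printed, Ndufs7 also matches YY1, Ndufs3 ETS and Uqcrc1 NRF1, and Ndufa10 matches none of the motifs in the whole window.

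The search covered windows of 250 bases before and 50 after each RefSeq start, 75 windows for 69 of the 84 genes and 32851 in all. NRF1 and the ETS factor GABP, with its DNA-binding subunit Gabpa, are known regulators of nuclear genes of the chain, as are YY1 and the estrogen-related receptors. The NRF1 letters GCGCANGCG stood in 28% of the chain windows, among them those of Cox6a1, Atp5g2 and Ndufa8, against 6.25% of all windows. The ETS letters CCGGAAG stood in 21.3%, against 8.86%, and the YY1 letters AAGATGGCG in 12%, against 1.4%. The estrogen-related receptor letters AAGGTCA stood in 10.7%, against 4.72%, and the TATA letters TATAAA in 10.7%, against 13.6%. Both strands were read, the ETS and YY1 letters can share their AAG, and NRF1 letters on opposite strands can overlap. In all, 38 of the 75 windows held an NRF1, ETS or YY1 match and 8 held more than 1 kind. These are matches of letters in windows of the annotation, not measured binding.

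By complex, the time course differed little in its medians. In PPA mice the median change was -0.07 for complex I, -0.19 for complex II, -0.05 for complex III, -0.10 for complex IV and -0.06 for complex V. In control mice it was -0.06 for complex I, -0.17 for complex II, -0.02 for complex III, 0.06 for complex IV and 0.00 for complex V. All 4 complex II genes were lower at 6 h in both, from Sdha to Sdhc (-0.09 ± 0.12) in PPA mice and from Sdhb (-0.23 ± 0.13) to Sdhd (-0.11 ± 0.12) in control mice. At the upper end in PPA mice were Ndufb4 (0.34 ± 0.19), the hinge protein gene Uqcrh (0.27 ± 0.17), Cox6c (0.26 ± 0.18) and the membrane subunit gene Atp5k (0.21 ± 0.23). In control mice they were Ndufa3 (0.16 ± 0.21), Uqcrh (0.18 ± 0.17), Cox7a1 (0.82 ± 0.41) and Atp5g2 (0.29 ± 0.13, adjusted p = 0.11).

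At the lower end in PPA mice, beside the 5 that fell, Ndufa4l2 (-0.56 ± 0.29) and the testis form Cox6b2 (-0.49 ± 0.33) were low with wide errors at 2 FPKM or less at 6 h. Atp5sl missed the threshold there (-0.42 ± 0.15, adjusted p = 0.0505). PPA groups did not overlap for 22 chain genes that were lower at 6 h, 27.5% against 23.1% of all genes, and for 6 that were higher, 7.5% against 24.5%. The 6 were Cox6c, Cox7c, Ndufb4, Ndufs4, Uqcrb and Uqcrh, and all but Ndufb4 and Ndufs4 have transcripts under 600 bases. The spread within groups was smaller in PPA than in control libraries, so these counts are not set against those of control mice. In control mice the low ones, beside the 2 that fell, were Ndufa6 (-0.32 ± 0.18), Uqcr11 (-0.12 ± 0.19), Cox6b2 (-0.27 ± 0.33) and the b subunit Atp5f1 (-0.18 ± 0.11).

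With the length trend removed, 8 chain genes fell in PPA mice, against 14.6% of all genes. They were Ndufs7 (-0.67 ± 0.09), Ndufa10 (-0.43 ± 0.09), Ndufa6, Ndufb3, Ndufb10, Sdha, Uqcrc1 and Cox6a1, and Ndufs3 no longer passed. In control mice 2 fell, against 12.9%, again Ndufs7 (-0.45 ± 0.09) and Atp5sl, and Atp5g2 rose (0.34 ± 0.10, adjusted p = 0.0206), against 16.1%. Spearman's rho of change and length was 0.06 across all genes and -0.21 across the 80 in PPA mice, and 0.08 and -0.26 in control mice.

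The median over the chain genes in control mice took either sign as libraries were left out. It was 0.08 without control library 1 at 0 h or without control library 3 at 6 h, and -0.15 without control library 4 at 6 h. Neutrophil markers summed to 16.9 to 24.1 FPKM in PPA libraries at 6 h and 11.1 to 53.4 FPKM in control libraries at 6 h. At 0 h they summed to 0 to 2.66 FPKM in PPA libraries and 0.407 to 3.08 FPKM in control libraries, and S100a8 was listed at 0 in all but PPA library 4. Their part in the results for the chain was not tested.

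Of the 8 tissue-restricted isoforms, none is typical of liver, and 4 passed the filter. Cox7b2 and Cox8c were listed at 0 in all 12 libraries, and Cox4i2, the lung form of subunit IV, reached 0.325 FPKM at most. Cox6a2, the heart and muscle form of subunit VIa, was listed at 9.28 FPKM in control library 4 at 6 h and at 0.831 FPKM or less in each other library. Cox8b, the heart and muscle form of subunit VIII that brown fat also makes, was listed at 16.55 FPKM in control library 4 at 6 h and at 16.6 FPKM in PPA library 2 at 0 h. Elsewhere it reached 1.12 FPKM at most and was at 0 in 8 libraries, so its fitted changes rest on single libraries and are not read.

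Those libraries are the ones that held muscle and fat transcripts. In control library 4 at 6 h Acta1, the actin of skeletal muscle, was at 23.2 FPKM, muscle creatine kinase Ckm at 20.1 FPKM and myoglobin Mb at 14.8 FPKM. Their highest values elsewhere were 0.168, 0.177 and 0.217 FPKM. In PPA library 2 at 0 h the fat genes Cidea, Adipoq and Cfd were at 6.16, 4.54 and 44.35 FPKM. Elsewhere these reached 0.763, 0.937 and 22.4 FPKM at most. Fabp4, also on the white fat list, was at 52.6 FPKM there and at up to 44.2 FPKM elsewhere. Ucp1, the uncoupling protein of brown fat, was at 1.5 FPKM in PPA library 2 at 0 h. Ucp1 was listed at 0 in every other library. Elovl3, on the brown fat list, was at 84.2 FPKM or more in all libraries and is also made in liver.

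Cox7a1, the heart and muscle form of subunit VIIa, had 8.42, 3.82 and 3.72 FPKM in PPA libraries at 6 h, against 10.9, 10.9 and 15.7 FPKM in control libraries at 6 h. All 3 control libraries lay above all PPA libraries, including those with few muscle transcripts (-1.15 ± 0.41, adjusted p = 0.238). Without control library 4 the change was -0.99, with an adjusted p of 0.585. At 0 h it had 10.6, 6.64 and 5.45 FPKM in PPA libraries and 11.97, 8.37 and 2.51 FPKM in control libraries, which overlapped. Its value in any library rests on an estimated 3 to 46 fragments. Cox7a2, the form that liver uses, had 212 to 349 FPKM across all libraries.

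**Figure D5:**
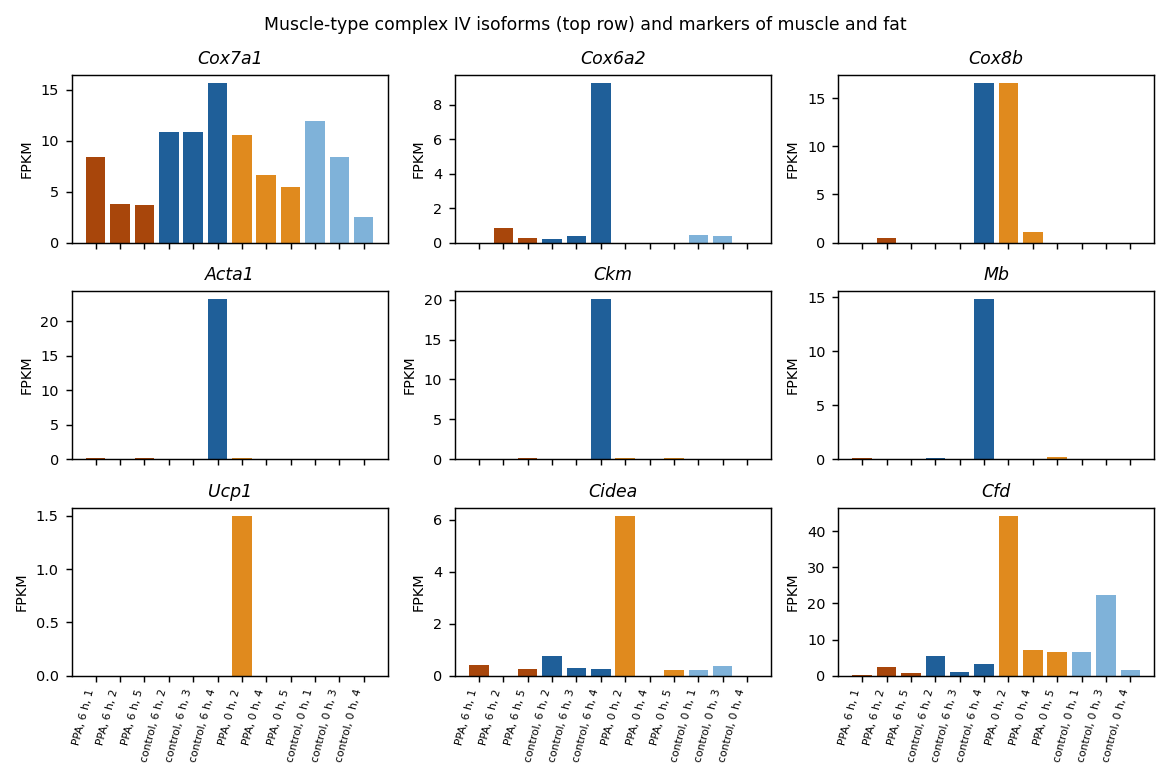
FPKM in each of the 12 libraries (PPA left of control, 6 h left of 0 h) of 3 muscle-type isoforms of complex IV and of 3 markers each of muscle (middle row) and fat (bottom row). Cox6a2, Cox8b and all 3 muscle markers peak in control library 4 at 6 h, and Cox8b also in PPA library 2 at 0 h with the fat markers.

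Other genes of the pathway were counted from lists chosen for function. In the PPA comparisons no gene of these lists was called at either time. A test of PPA against control responses called none of them either, so unlike counts in PPA and control mice do not show that responses differed. For the change by 6 h, the counts of the lists stand beside the shares of all tested genes. Of these 13.3% fell and 15.0% rose in PPA mice and 11.8% fell and 15.2% rose in control mice. Of 23 complex IV assembly factors, 3 fell in PPA mice and 3 in control mice, 13.0% in each and near the share of all genes, and none rose. Coa6, which helps deliver copper to complex IV, fell in both (-0.49 ± 0.16 in PPA and -0.80 ± 0.16 in control mice), and Sco2, another copper chaperone, fell in PPA mice, with 140 ± 33.9 FPKM at 6 h against 326 ± 34.2 FPKM at 0 h (-1.23 ± 0.25, adjusted p = 0.00353). Of 14 complex I assembly factors, 2 fell in PPA mice (14.3%) and 4 in control mice (28.6%), among them Ecsit in both (-0.57 ± 0.14 in PPA and -0.56 ± 0.14 in control mice) and Ndufaf3 in both. Of 9 factors for complexes II and III, 2 fell in PPA mice (22.2%) and 3 in control mice (33.3%), and Bcs1l, which inserts the Rieske protein into complex III, was in both. Of 4 ATP synthase factors none fell in PPA mice, and Tmem70 fell in control mice.

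Genes of the mitochondrial matrix moved in both directions. Of 18 TCA cycle and pyruvate dehydrogenase genes, 8 fell and 1 rose in PPA mice (44.4% and 5.56%), and 1 fell and 1 rose in control mice (5.56% each). Idh2, the mitochondrial isocitrate dehydrogenase that makes NADPH, had 43.6 ± 3.08 FPKM at 6 h and 65.6 ± 1.72 FPKM at 0 h in PPA mice (-0.58 ± 0.12, adjusted p = 0.00467) and fell in control mice too (-0.56 ± 0.12), while Pdhb rose in both. Among 14 mitochondrial chaperones and proteases, 3 rose and 4 fell in PPA mice (21.4% and 28.6%) and 3 rose and 2 fell in control mice (21.4% and 14.3%). Hspe1, which with Hspd1 forms the folding chamber of the matrix, had 908 ± 188 FPKM at 6 h and 205 ± 26.8 FPKM at 0 h in PPA mice (2.13 ± 0.20, adjusted p = 1.37e-05) and rose by 1.37 ± 0.20 in control mice. The unfoldase Clpx fell in both (-1.35 ± 0.12 in PPA and -1.03 ± 0.12 in control mice).

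Of 15 tested regulators of mitochondrial gene expression, 3 rose and 1 fell in PPA mice (20% and 6.67%), and 3 rose and 2 fell in control mice (20% and 13.3%). Pprc1, a coactivator of the PGC-1 family, rose in both (1.20 ± 0.15 in PPA and 1.29 ± 0.15 in control mice), as did Gabpb1, the partner subunit of GABP. In PPA mice the estrogen-related receptor Esrra fell, with 23.2 ± 1.06 FPKM at 6 h and 38.8 ± 3.64 FPKM at 0 h (-0.71 ± 0.12, adjusted p = 0.000953), and Nrf1 rose (0.59 ± 0.14, adjusted p = 0.00841). In control mice Esrra had 31.2 ± 4.55 FPKM at 6 h and 34.3 ± 1.5 FPKM at 0 h, and Nrf1 3.35 ± 0.543 and 2.2 ± 0.269 FPKM. Of 77 mitochondrial ribosomal protein genes, 5 fell and none rose in PPA mice, where 6.49% fell against 13.3% of all genes. In control mice 13 fell and 2 rose, where 16.9% fell against 11.8%. Of 92 cytosolic ribosomal protein genes, also short and abundant, 49 rose and none fell in PPA mice by 6 h (53.3% rose), with a median change of 0.45 against -0.08 for the chain genes. In control mice 11 rose and 1 fell (12% and 1.09%), with a median of 0.27 against -0.04 for the chain genes. For PPA against control, the ribosomal median was -0.23 at 0 h, beside -0.22 for the chain genes, and -0.05 at 6 h, beside -0.23. Of 13 chain proteins outside the symbol rule, Hccs, which attaches haem to cytochrome c, rose in both, and Etfdh (-0.62 ± 0.18) and Higd2a (-0.35 ± 0.12) fell in PPA mice. Of 21 import genes 2 rose and 1 fell in PPA mice (9.52% and 4.76%) and 1 rose and 2 fell in control mice (4.76% and 9.52%), and of 10 antioxidant and uncoupling genes only Sod2 was called and fell in PPA mice (-0.37 ± 0.12).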

How the data were processed

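The authors deposited FPKM values of 24340 gene rows, with no read counts. Trizol extraction, poly(A) selection and a ThruPLEX library kit are stated per the labels' protocols. The submitters' processing notes name mm10 and the tools Cuffdiff 2.1.1, Cufflinks, HISAT2 2.1.0 and SAMtools 0.1.18-r580, without roles, settings or annotation. Each FPKM depends on its library's total, so abundant genes that change move the rest.

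Rows of short non-coding RNA (1315) and Alb and Apoe, whose zeros in some libraries were taken as failed estimates, were left out. The table holds 27 symbols turned into date serials by a spreadsheet. Genes with 1 FPKM or more in 3 libraries were tested on log2(FPKM + 1) by limma 3.58.1 (R 4.3.3), fitting all 12 libraries by group, with a trended prior variance, and Benjamini-Hochberg adjustment over 10042 genes. The fit was tested on simulated data. Transcript lengths are from GENCODE M21, and promoters from RefSeq. The length trend was removed by loess (span 0.5) in each library. Depth was estimated from the 40 smallest values of genes of 3000 bases or more with a single transcript, and covers counting error only. Alternatives covered the pseudocount, filter, scaling, length, weights, short RNAs, shared symbols, groups fitted, a replicate block and each library left out.

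Members, lists and tests were chosen with earlier results of these data known. Genes named are the called members, those with the highest and lowest change or level of each complex, the tissue isoforms, and up to 4 called genes of each other list. Others were picked after their values were seen, such as those with an unadjusted p under 0.05. Python 3.11.15, pandas 2.3.3 and matplotlib 3.10.9 made tables and figures. Values of 2 genes are not reported here.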

Additional observations from a re-analysis of the deposited data

Results flagged for a closer look

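For Ndufa10, an accessory subunit of complex I, every PPA library was below every control library at 6 h, and every PPA library was above every control library at 0 h. The difference of the PPA effects between both times was -0.44 ± 0.14 on the log2 scale, with an unadjusted p of 0.00843 and an adjusted p of 0.457 in limma, so it did not pass the test over all genes. Without PPA library 2 at 0 h the difference was again -0.44, with an adjusted p of 0.628.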

How the results depend on the processing

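For PPA at 0 h, 0 chain genes were called under each of the alternatives run, and for PPA at 6 h and the mean PPA effect 0 were called with 2 exceptions. With sample quality weights 51 of 80 chain genes were called for PPA at 6 h, where 36.2% of all genes were called. For both times averaged 16 were called, against 14.1% of all genes, and for the difference between times 1, against 5.21%. These weights ran from 0.318 for control library 3 to 6.3 for control library 2 at 6 h, and their estimation stopped before it converged. With each library left out, the number called ranged from 0 to 11 for PPA at 6 h and from 0 to 3 for the mean. Both were highest without control library 3 at 6 h, where 8.2% and 3.35% of all genes were called.

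For 6 h against 0 h in PPA mice, 5 were called, against 28.3% of all genes. The number was 8 with the length trend removed, against 30.6%. It was 9 with quality weights, against 40.8%, and with only the groups compared, against 32.3%. Without any 1 of the PPA libraries it was 2, against 20.1 to 24.7%. In control mice, 2 were called, both lower, against 26.9% of all genes. The number was 1 when genes above 0 FPKM in at least 1 library were kept (Ndufs7, lower), against 14.3%. It was 0 with only the groups compared, against 21.9%, and 0 to 2 with a library left out, against 18.1 to 25.9%. With quality weights 5 were called, against 42.5%, with Ndufs7 and Atp5sl lower and Atp5g2, Cox7a2l and Uqcrh higher. Without control library 1 at 0 h other genes were called, Sdha lower (-0.33, adjusted p = 0.0445) and Atp5g2 higher (0.41, adjusted p = 0.0287).

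Replicate numbers were not taken to pair the libraries. Deviations of libraries with the same number correlated at -0.282 to 0.088, and values for libraries with different numbers are not given beside them. With a replicate block the median PPA change at 6 h was -0.42, with 0 called, against 0.00996% of all genes. At an unadjusted p under 0.05 in limma there were then 48 chain genes, against 8 without the block, and the share of all genes was not computed. Over time 2 chain genes fell in PPA mice under the block, against 19.9% of all genes called. In control mice neither fall was called under the block, and the 1 call was Cox7a1, higher (1.15, adjusted p = 0.0442).

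Scaling libraries to the same summed FPKM moved the median PPA change of the chain genes to -0.13 at 0 h, with 63 of 80 lower, and to -0.13 at 6 h, with 75 lower. The median of all genes was then 0.07 at 0 h, against -0.01 as deposited, and 0.06 at 6 h, against -0.02. Among 42 results for single genes, 37 of the alternatives lost a call, 17 gained 1 and 17 turned the sign of a change that was not called. No called change turned its sign. Among tested chain genes depth limits Cox8b most, listed at 0 in 8 libraries, then Cox6b2, Cox7a1, Ndufa4l2 and Atp5s, which rested on as few as 2, 3, 6 and 11 estimated fragments in a library.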
